A study of Mus musculus with 12 samples.

Results

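Transfer of regulatory T cells (Tregs) into Tcrb-/- mice before skin treatment with the carcinogen DMBA was examined by comparing 3 libraries of Tcrb-/- + Treg skin with 3 libraries of Tcrb-/- skin, chosen by the group given in their titles from the 12 libraries of the series. All 6 libraries held RNA of whole skin from mice of the FVB background (FVB/N in the study's methods) that lacked Tcrb and received topical DMBA. The deposited design gives 200 ng weekly for 6 weeks, while the study's methods state molar amounts, so the dose is not settled here. The Tregs were CD3+CD4+CD25+ cells purified from wild type donors, from spleen per the deposited design and from spleen and lymph nodes per another passage of the study, and given i.v. before the DMBA, and the untransferred Tcrb-/- group was the control. The other 6 libraries, 3 of untreated wild type skin (UT WT) and 3 of wild type skin with DMBA (WT DMBA), entered the fits to help estimate the spread and are cited where they place a level. The WT DMBA libraries carry DMBA in their titles while a second label field calls them untreated, so each value of that group rests on the titles. The sources used here do not tie libraries to individual mice, so p-values measure only the spread between these libraries, which may be technical.

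Tcrb encodes the beta chain of the alpha-beta T cell receptor, and mice without it lack conventional CD4+ and CD8+ alpha-beta T cells, Tregs included, while gamma-delta T cells, B cells and myeloid cells remain. Tregs restrain other immune cells through inhibitory receptors, cytokines and uptake of growth signals, and skin holds a resident Treg population. DMBA is a polycyclic hydrocarbon that skin cells convert into a mutagenic form, and it also provokes skin inflammation. The CD4+CD25+ sort that defined the transferred cells can also take conventional T cells that are activated, and the authors checked purity by Foxp3 and CD25 staining.

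The tables list transcripts of the FVB/NJ strain by identifier only, 85565 in all, and the reference tables used here paired 0 of them with a gene. The differences are therefore described by abundance and by position in the series of identifier numbers, not by gene name, and neither the deleted gene nor markers of T cells, other immune cells or skin cell types could be looked up. The identifier numbers run nearly without gaps, since 85336 of the listed transcripts have a neighbour whose number is 1 higher. The files do not say whether neighbouring numbers belong to the same gene or lie side by side in the genome. A library of Tcrb-/- skin held 20325556 to 22781496 estimated reads and a library of Tcrb-/- + Treg skin 20502907 to 25003790. Of the estimates above 0, 79.8% to 82.7% were not whole numbers (off by more than 0.01), meaning that reads shared by similar transcripts had been divided between them.

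Transcript by transcript, few differences passed the test and most of those were lower with Tregs. Of 54539 transcripts with at least 10 reads over the 12 libraries, 2 rose (0.00367%) and 6 fell (0.011%) at an adjusted p under 0.01 and a fold above 2 (0.0147% together; edgeR's quasi-likelihood test with Benjamini-Hochberg adjustment). At an unadjusted p under 0.05, 1570 were higher (2.88%) and 2229 lower (4.09%), together 6.97%. Without Tcrb-/- replicate 1 these counts turned to 2349 higher and 2165 lower. The 3 libraries of each group did not overlap for 2751 transcripts that were higher (5.04%) and 3546 that were lower (6.5%). With 3 libraries against 3, full separation reaches an exact permutation p of only 0.1, so many transcripts separate without any difference. DESeq2 on the same reads called 124 higher and 629 lower, so the number of calls depends on the tool. Lower calls outnumbered higher calls with both tools on all libraries, but edgeR called 1 higher and 1 lower without Tcrb-/- replicate 2 and 2 of each without Tcrb-/- replicate 3. In bulk tissue, fewer cells of a type and less RNA per cell cannot be told apart, here and for each difference below.

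Among transcripts of moderate and low abundance at an unadjusted p under 0.05, more were lower than higher with Tregs, while abundant ones showed no such lean. Abundance classes were set on the mean TPM over the 12 libraries (the share of all transcripts, a level corrected for length and scaled to a fixed total). Among 18307 tested transcripts at 1 to 10 TPM, 431 were higher (2.35%) and 956 lower (5.22%) at an unadjusted p under 0.05. The class at 0.1 to 1 TPM leaned the same way, with 309 higher (1.5%) and 550 lower (2.67%) of 20572. Together these were 4.18%, under the 6.97% over all tested transcripts. The median log2 fold change was 0.0038 at 1 to 10 TPM and -2.96e-05 at 0.1 to 1 TPM. The lean was thus one of these counts and not of whole classes. Under 0.1 TPM, 48 were higher and 70 lower of 5006, a count that turned to more higher than lower transcripts when any Tcrb-/- + Treg library was left out.

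The more abundant classes showed no settled direction in these counts, though their median log2 fold changes were above 0. In order of abundance the medians of the 3 classes were 0.081, 0.101 and 0.184. With median-ratio scaling they were 0.048, 0.068 and 0.151. At 1000 TPM and more the quartiles were 0.081 and 0.241. At 10 to 100 TPM, 690 of 9334 transcripts were higher (7.39%) and 565 lower (6.05%), but scaling the libraries by the median ratio in place of TMM turned this to 518 higher and 637 lower. At 100 to 1000 TPM, 79 were higher and 81 lower of 1171, and at 1000 TPM and more 13 were higher and 7 lower of 149. Leaving out Tcrb-/- replicate 1 moved the higher share of these counts to 66.7%, 84.2% and 94.1% in the 3 classes. Without Tcrb-/- + Treg replicate 1 the same shares were 35.4%, 26.5% and 40.0%. The direction of these counts in the abundant classes thus rested on single libraries. At 1 to 10 TPM the higher share stayed between 21.8% and 42.2% with any 1 of the 6 libraries left out.

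**Figure D1:**
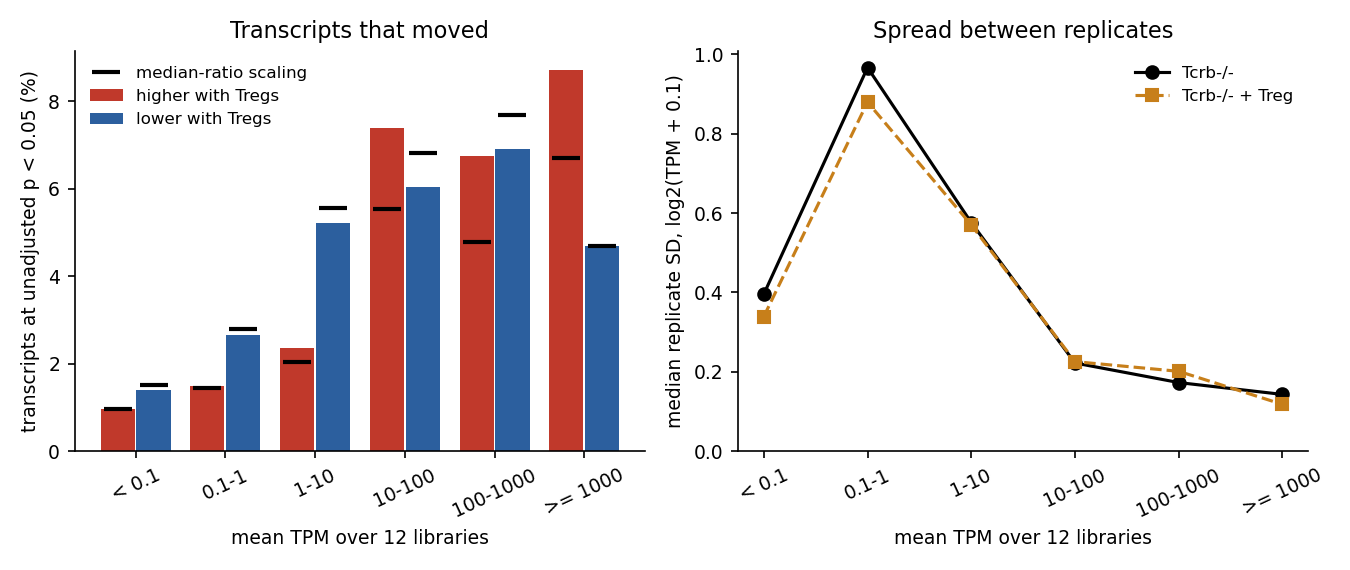
Left, percent of tested transcripts in each abundance class (mean TPM over 12 libraries) that were higher (red) or lower (blue) in Tcrb-/- + Treg than in Tcrb-/- skin at an unadjusted p under 0.05, with black marks for the same counts after median-ratio scaling. Right, median SD between the 3 replicates of each group on the log2(TPM + 0.1) scale, which peaks at 0.1 to 1 TPM (0.97 and 0.88) and is 0.14 and 0.12 at 1000 TPM and more.

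The spread between replicates set what each class could show. On the log2(TPM + 0.1) scale the median SD between replicates was 0.97 in Tcrb-/- and 0.88 in Tcrb-/- + Treg skin at 0.1 to 1 TPM. It was 0.58 and 0.57 at 1 to 10 TPM, 0.22 and 0.23 at 10 to 100 TPM, and 0.14 and 0.12 at 1000 TPM and more. A transcript at 0.1 to 1 TPM therefore had to differ by several times more than an abundant transcript to pass the same test. Under 0.1 TPM the SD was smaller (0.40 and 0.34) because the added 0.1 dominates such values.

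Pairs of libraries from different groups were hardly farther apart than pairs from the same group. The median absolute log2 ratio over all tested transcripts averaged 0.528 over the 9 pairs between the groups, with a range of 0.486 to 0.588. It averaged 0.496 over the 6 pairs within the groups, with a range of 0.407 to 0.578. The difference of 0.0321 was not larger than the spread allows (one-sided exact permutation test, p = 0.2, where the smallest possible p is 0.1), and in the single classes p was 0.2 to 0.6. The closest pair of all was Tcrb-/- replicates 2 and 3 (0.407), and Tcrb-/- replicate 1 was farther from both of them (0.558 and 0.547) than from Tcrb-/- + Treg replicates 1 and 2 (0.499 and 0.495). Tcrb-/- + Treg replicates 2 and 3 were 0.578 apart. Tcrb-/- replicate 1 thus did not sit closest to its own group.

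No difference between the groups was found in the share of all TPM held by each class, though none could have reached a p under 0.05. Transcripts of 1000 TPM and more held 35.6%, 37.2% and 37.0% in the Tcrb-/- libraries and 37.7%, 34.5% and 40.9% in the Tcrb-/- + Treg libraries. The means were 36.6% ± 0.872 and 37.7% ± 3.16 (SD, n = 3 each; two-sided exact permutation test, p = 0.7). Transcripts at 1 to 10 TPM held 6.25% ± 0.468 and 5.82% ± 0.278 (SD, n = 3 each; two-sided exact permutation test, p = 0.2), with overlapping libraries. Over the 6 classes the unadjusted p ran from 0.2 to 1.0, no adjusted value was under 0.84, and 3 libraries against 3 cannot give less than 0.1.

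Transcript length went with direction among abundant transcripts on all libraries, a relation that was gone without Tcrb-/- replicate 1. Of 1784 transcripts with at least 10 TPM and 4000 nt or more, 16.3% were higher and 5.1% lower at an unadjusted p under 0.05, beside 3.07% higher and 5.51% lower of 1889 transcripts of 500 to 1000 nt. The higher share of the long ones was 12.1% with median-ratio scaling and 7.29% without Tcrb-/- + Treg replicate 1, still above the lower share of 5.83% and 4.37%. With limma on log2(TPM + 0.1) the order turned, with 4.54% higher and 5.83% lower. Of the TPM of all transcripts with at least 10 TPM, the share held by these long ones was 4.4%, 5.21% and 5.26% in the Tcrb-/- libraries and 5.01%, 5.19% and 4.95% in the Tcrb-/- + Treg libraries, so the groups overlapped and Tcrb-/- replicate 1 was the lowest of all 12 libraries. Tcrb-/- replicate 1 also had the shortest mean transcript length weighted by TPM, 1466 nt against 1535 to 1693 nt in the other 11. Its part in these counts was tested only by leaving it out. The higher share among transcripts of 500 to 2000 nt then rose from 3.87% to 15.6%, and that of the long ones was 15.2%. The lower shares were 5.85% and 6%, so these lengths no longer differed in direction.

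Neighbouring identifier numbers moved together more often than distant ones, and mostly downward. Of 41071 pairs of tested transcripts whose numbers differ by 1, 353 had both members at an unadjusted p under 0.05 (0.859%), with both lower in 203 pairs, both higher in 67 and opposite directions in 83 (23.5%). At a distance of 10 numbers the pairs in question were 195 of 37353 (0.522%), of which 41.0% went opposite ways. At a distance of 1000 they were 157 of 35776 (0.439%), of which 51.6% went opposite ways. The excess at short distance was thus one of shared direction, and it faded between 5 and 100 numbers. Over all pairs at distance 1, most of them of low level, the log2 fold changes had almost no linear relation (Pearson r = 0.0034 over 41071 pairs, and 0.0206 over 5586 pairs with a mean of at least 100 reads). These pairs share libraries, and neighbours may share reads, so r is given as a description.

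**Figure D2:**
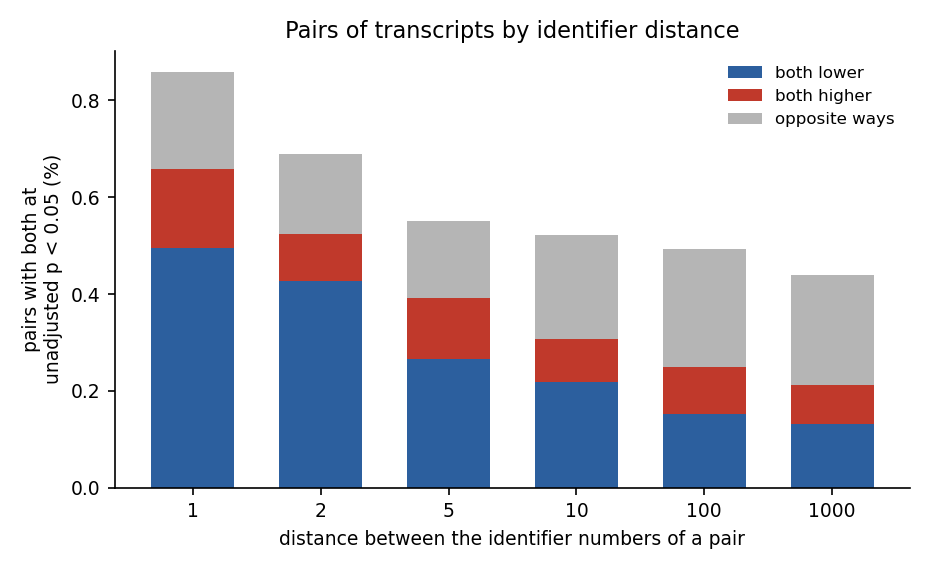
Percent of pairs of tested transcripts in which both members were at an unadjusted p under 0.05, by the distance between their identifier numbers, split into pairs that were both lower (blue), both higher (red) or opposite (grey) in Tcrb-/- + Treg skin. The total falls from 0.859% at distance 1 to 0.439% at distance 1000, and the grey part stays similar while the blue part shrinks.

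Runs of consecutive identifiers showed the same lean. A run was 3 or more tested transcripts in identifier order, with numbers at most 3 apart, that all had an unadjusted p under 0.05 and 1 direction. There were 36 runs of lower transcripts (127 transcripts) and 6 of higher ones (19 transcripts), beside 4.09% lower and 2.88% higher over all tested. Of the lower runs, 26 held 3 transcripts, 6 held 4 and 4 held 5 or more. Of the higher runs, 5 held 3 and 1 held 4. Higher runs were of more abundant transcripts, with a median of 4186 summed reads per library against 803 for the lower runs. Runs were picked by their values, so they carry no test of their own. Without Tcrb-/- replicate 1 there were 25 higher and 43 lower runs, and with each of the other libraries left out in turn 0 to 5 higher and 23 to 43 lower runs.

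The longest lower run held 9 consecutive transcripts of 412 to 2884 nt. Its summed level (CPM, reads scaled to the library size but not to length) was 149, 218 and 199 in the Tcrb-/- libraries and 56.8, 81.3 and 63.7 in the Tcrb-/- + Treg libraries. Each of the 9 was lower in every Tcrb-/- + Treg library than in any Tcrb-/- library, with log2 fold changes of -2.41 to -1.12. The choice of the run largely fixes this separation, which 6.5% of all tested transcripts showed in the same direction. The most abundant of them, MGP_FVBNJ_T0046746.1 (718 nt), stood at 40.2, 56.8 and 57.0 CPM in Tcrb-/- and at 22.03, 24.41 and 24.34 CPM in Tcrb-/- + Treg skin. The groups did not overlap, but its log2 fold change of -1.12 (SE 0.14) missed the threshold (edgeR's quasi-likelihood test, adjusted p = 0.0140). It passed with edgeR without Tcrb-/- replicate 1 (log2 fold change -1.27, adjusted p = 0.00307) and with DESeq2 (-1.16, adjusted p = 1.33e-11). Over the alternatives run its adjusted p ranged from 6.59e-31 to 0.334. In WT DMBA skin the same transcript was at 94.1 to 105 CPM and in UT WT skin at 45.8 to 51.1 CPM. None of the 9 passed edgeR's quasi-likelihood test on all libraries, though all 9 had an unadjusted p under 0.05 by the choice of the run, and DESeq2 called 6.

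The next lower runs spanned a wide range of levels. A run of 6 transcripts summed to 20.5, 17.6 and 23.4 CPM in the Tcrb-/- libraries and to 4.41, 7.92 and 3.74 CPM in the Tcrb-/- + Treg libraries. A run of 5 summed to 87.5, 58.3 and 86.5 CPM against 17.43, 19.995 and 12.96 CPM, with member log2 fold changes of -3.54 to -1.88. The other run of 5 was near the lower end of detection, at 3.23, 5.49 and 6.40 CPM against 0.575, 1.41 and 0.264 CPM. The most abundant run of 4, with members of 3949 to 4912 nt, summed to 377, 676 and 614 CPM against 201, 205 and 138 CPM, and its members had log2 fold changes within -1.72 to -1.52. In each of these runs the summed levels of the groups did not overlap, which the choice of the runs largely fixes.

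The longest higher run held 4 transcripts and overlapped between the groups. Its summed level was 1905, 828 and 1072 CPM in Tcrb-/- and 1603, 3180 and 3094 CPM in Tcrb-/- + Treg skin. Most of it came from MGP_FVBNJ_T0081657.1 (728 nt), at 1565, 607 and 813 CPM in Tcrb-/- and 1270, 2784 and 2637 CPM in Tcrb-/- + Treg skin. Tcrb-/- replicate 1 was above Tcrb-/- + Treg replicate 1, so the groups overlapped. The difference of 1.16 (log2, SE 0.34) was not called (edgeR's quasi-likelihood test, unadjusted p = 0.00632, adjusted p = 0.341). The window that holds it had a log2 fold change of 1.04 (adjusted p = 0.133) and passed without Tcrb-/- replicate 1 (1.58, adjusted p = 0.00839). The 3 WT DMBA libraries lay between 632 and 648 CPM, far closer to each other than the libraries of either Tcrb-/- group.

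To test neighbours together, the reads of each fixed window of 10 identifier numbers were summed and all windows fitted. Summing removes the effect of reads divided between similar transcripts of a window. The common dispersion is the squared coefficient of variation that edgeR estimates between replicates. It was 0.0396 for windows and 0.818 for single transcripts. For transcripts whose reads were whole numbers in every library it was 0.317. How much of the lower value in windows came from undoing divided reads was not tested. Of 8332 windows tested, 80 fell and 0 rose at an adjusted p under 0.01 and a fold above 2 (0.96% of those tested; edgeR's quasi-likelihood test). At an unadjusted p under 0.05, 663 were higher (7.96%) and 852 lower (10.2%), together 18.2%. Without Tcrb-/- replicate 1 these counts turned to 1118 higher and 912 lower. The groups did not overlap in 712 windows that were higher (8.55%) and 899 that were lower (10.8%), with the same limit as for single transcripts. DESeq2 called 3 windows higher and 195 lower, and all 80 were among its lower calls. With the fold left aside, 117 windows were lower and 6 higher at an adjusted p under 0.01.

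**Figure D3:**
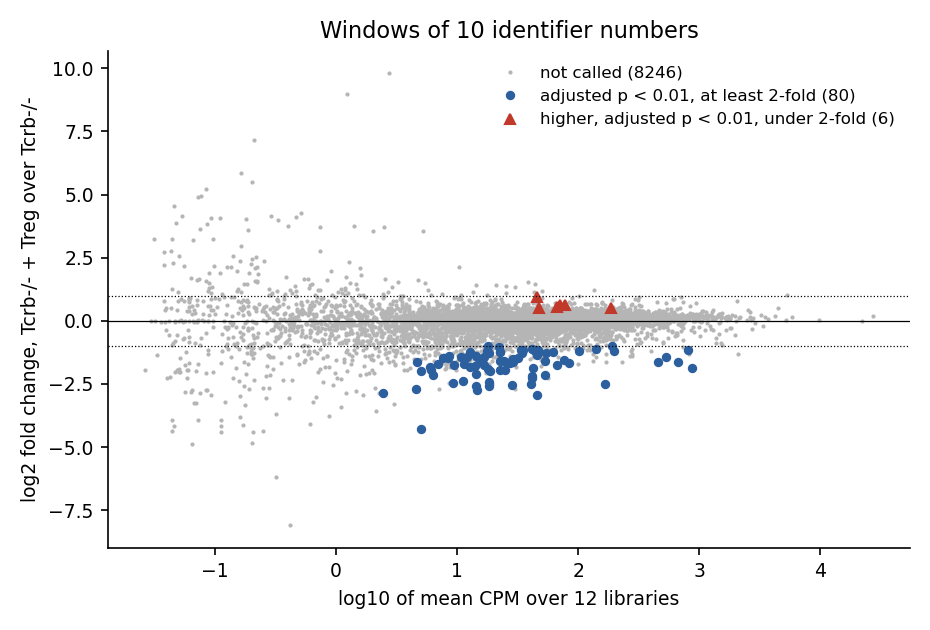
Log2 fold change of each window of 10 identifier numbers (Tcrb-/- + Treg over Tcrb-/- skin) against the log10 of its mean CPM over 12 libraries, with dotted lines at a 2-fold difference. The 80 windows that fell (blue) lie at log2 fold changes of -4.29 to -1.002 and the 6 that were higher at an adjusted p under 0.01 (red) at 0.49 to 0.96.

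The 80 windows that fell had a median log2 fold change of -1.61, which is 3.06-fold lower with Tregs, and a median of 25.9 CPM in Tcrb-/- against 8.75 CPM in Tcrb-/- + Treg skin. Summed over the 80, the Tcrb-/- libraries held 5523, 6798 and 6998 CPM and the Tcrb-/- + Treg libraries 2029, 2708 and 1906 CPM. The groups did not overlap in any of the 80, which the choice of these windows largely fixes. Replicate 3 was the highest of the Tcrb-/- libraries in 47 of them and Tcrb-/- replicate 1 in 10. Among the Tcrb-/- + Treg libraries replicate 3 was the lowest in 48, replicate 1 in 27 and replicate 2 in 5.

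The wild type groups put these levels in context, as a description, since the windows were chosen on the Tcrb-/- and Tcrb-/- + Treg libraries. Over the 80 windows the median level was 21.7 CPM in UT WT and 33.9 CPM in WT DMBA skin. The Tcrb-/- mean was above the WT DMBA mean in 6 of 80 windows and above the UT WT mean in 48. The Tcrb-/- + Treg mean was below the WT DMBA mean in all 80 and below the UT WT mean in 78. In the median window Tcrb-/- skin stood at 0.791 of WT DMBA and Tcrb-/- + Treg skin at 0.257. Skin with Tregs was thus the lowest of the 4 groups in most of these windows, and not between the Tcrb-/- and untreated levels.

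**Figure D4:**
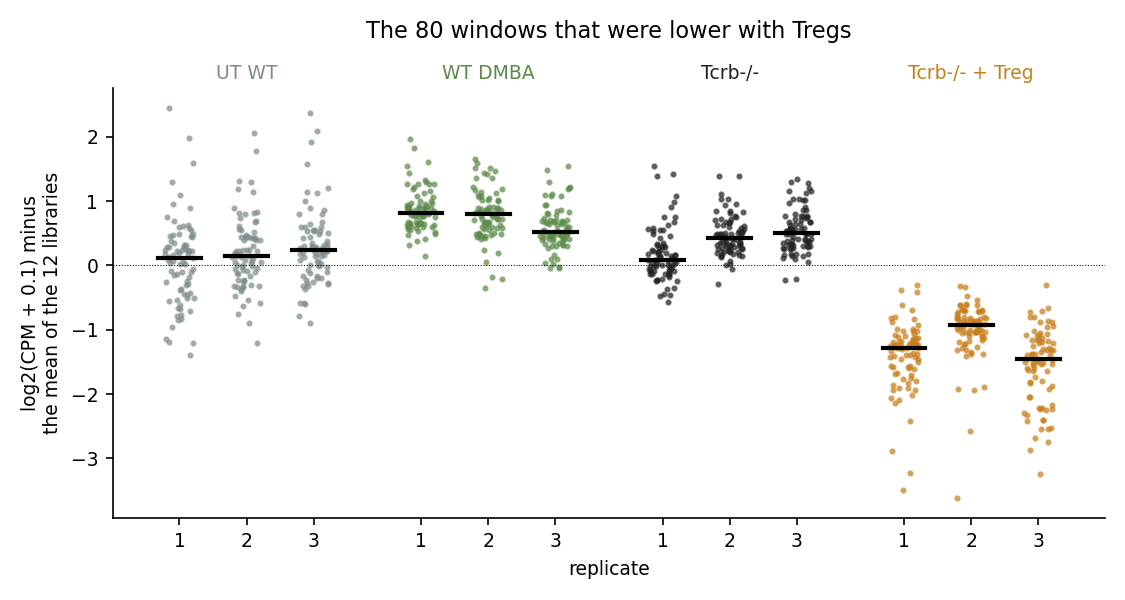
Level of each of the 80 windows that fell, as log2(CPM + 0.1) minus the mean of the 12 libraries, in each library of UT WT, WT DMBA, Tcrb-/- and Tcrb-/- + Treg skin (replicates 1 to 3, black bars for the median). The 3 Tcrb-/- + Treg libraries have medians of -1.29, -0.92 and -1.46, below the other 9, whose medians run from 0.09 to 0.82.

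Falls were found in windows of moderate level. At a mean of 10 to 100 CPM 56 of 4108 windows fell (1.36%), at 1 to 10 CPM 14 of 1055 (1.33%) and at 100 to 1000 CPM 10 of 2501 (0.4%). None of the 102 windows at 1000 CPM and more, and none of the 566 under 1 CPM, fell by edgeR's quasi-likelihood test, while 9 and 28 of them were lower at an unadjusted p under 0.05. The most abundant window that fell stood at 683, 955 and 1016 CPM in Tcrb-/- and at 188, 361 and 174 CPM in Tcrb-/- + Treg skin, and the groups were far apart. Its log2 fold change was -1.88 (SE 0.27, adjusted p = 0.00319). The next stood at 724, 836 and 834 CPM against 320, 446 and 298 CPM, a log2 fold change of -1.17 (SE 0.16, adjusted p = 0.00267).

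Within the windows that fell, a few members usually carried the drop. The 80 windows held 522 tested transcripts, of which 75.5% were lower with Tregs, against 46.7% of all tested transcripts, an excess that the choice of windows whose sums fell largely fixes. The transcript with the largest drop accounted for a median of 73.2% of a window's drop, for more than 90% in 23 windows and for less than 50% in 15. Of the 80, 73 held a transcript that was lower at an unadjusted p under 0.05, 45 held at least 2, and 3 held a transcript that was higher. The choice of windows largely fixes these counts as well, and no share over all windows stands beside them. With edgeR 2 of the 80 held a transcript called on its own, and with DESeq2 66 held a transcript called lower. With the most abundant transcript of each window left out of the sums, 16 windows fell and 0 rose, with 398 higher and 760 lower at an unadjusted p under 0.05. Among the 2887 windows with p above 0.5, 56 held transcripts at an unadjusted p under 0.05 in both directions. No share over all windows stands beside this count either. Of all tested transcripts, 2.88% were higher and 4.09% lower at that p.

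The window with the smallest p showed both patterns. It fell from 20.6, 36.0 and 40.5 CPM in Tcrb-/- to 2.996, 4.754 and 4.873 CPM in Tcrb-/- + Treg skin, a log2 fold change of -2.94 (SE 0.28, adjusted p = 0.00106). Its adjusted p was 0.0122 without Tcrb-/- + Treg replicate 1 and 0.0454 with only the 6 libraries. Most of the drop lay in a member of 3787 nt, with 315, 559 and 752 reads in Tcrb-/- and 19, 57 and 55 in Tcrb-/- + Treg skin. A member of 985 nt followed it, with 72, 100 and 95 reads against 9, 16 and 15. The most abundant member over the 12 libraries, MGP_FVBNJ_T0002475.1 (641 nt), went the other way. It had 0 reads in each Tcrb-/- library and 20, 14 and 11 reads in the Tcrb-/- + Treg libraries, which is at least 5-fold higher against the 3 reads per library that a count of 0 allows (edgeR's quasi-likelihood test, adjusted p = 0.00514). This call was kept by DESeq2 (adjusted p = 2.44e-05) and lost in edgeR without Tcrb-/- replicate 2 (0.0182), Tcrb-/- replicate 3 (0.0141), Tcrb-/- + Treg replicate 1 (0.0277) or Tcrb-/- + Treg replicate 3 (0.0127), and with only the 6 libraries (0.519). In wild type skin the same transcript stood at 33.8 to 42.9 CPM without and 53.9 to 78.5 CPM with DMBA, against 0.58 to 0.96 CPM in Tcrb-/- + Treg skin. Of the 85565 listed transcripts, 49 had 0 reads in each Tcrb-/- library and at least 10 in each Tcrb-/- + Treg library. Of these 49, 6 had at least 10 in all 6 wild type libraries. The reverse held for 57 transcripts, 2 of them with at least 10 reads in all 6 wild type libraries.

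Windows that fell also lay next to each other. Taking windows at an adjusted p under 0.01 and any fold, 24 formed 10 stretches of neighbouring windows of 1 direction, and all 10 stretches were lower with Tregs. With 117 lower and 6 higher windows to draw from, this direction was largely fixed in advance. The longest stretch covered 5 windows, or 50 identifier numbers, and included MGP_FVBNJ_T0046746.1. Its summed level was 1711, 2387 and 2368 CPM in the Tcrb-/- libraries and 639, 911 and 688 CPM in the Tcrb-/- + Treg libraries, 2155 ± 385 against 746 ± 145 CPM (SD, n = 3 each). UT WT libraries held 2276 to 2678 CPM and WT DMBA libraries 2608 to 3358 CPM. The stretch as a whole was thus lowest in skin with Tregs, and Tcrb-/- skin overlapped the untreated level.

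The 5 windows of this stretch had log2 fold changes of -1.88 to -0.90, and 4 of them passed the fold as well. The stretch held 46 tested transcripts, of which 38 were lower, 19 of them at an unadjusted p under 0.05, and no transcript was higher at that p. Of the 30 tested windows on both sides of it, none was lower at an adjusted p under 0.01 by edgeR's quasi-likelihood test, while 6 were lower and 0 higher at an unadjusted p under 0.05, and their median log2 fold change was 0.06, within a range of -1.16 to 0.48. The window directly before the stretch stood at 0.03 (SE 0.08). The window directly after it was almost without reads, at 0.208 and 0.29 CPM in the group means, and the next was lower by 0.78 (SE 0.17, adjusted p = 0.0267), so the end of the stretch is not clear. The second stretch held 3 windows with 17 tested transcripts, of which 16 were lower, and the other 8 held 2 windows each. Over all windows of at least 5 CPM, the log2 fold changes of adjacent windows had a Pearson r of 0.134 over 6420 pairs, which was 0.06 at a distance of 2 windows and 0.005 at 10.

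**Figure D5:**
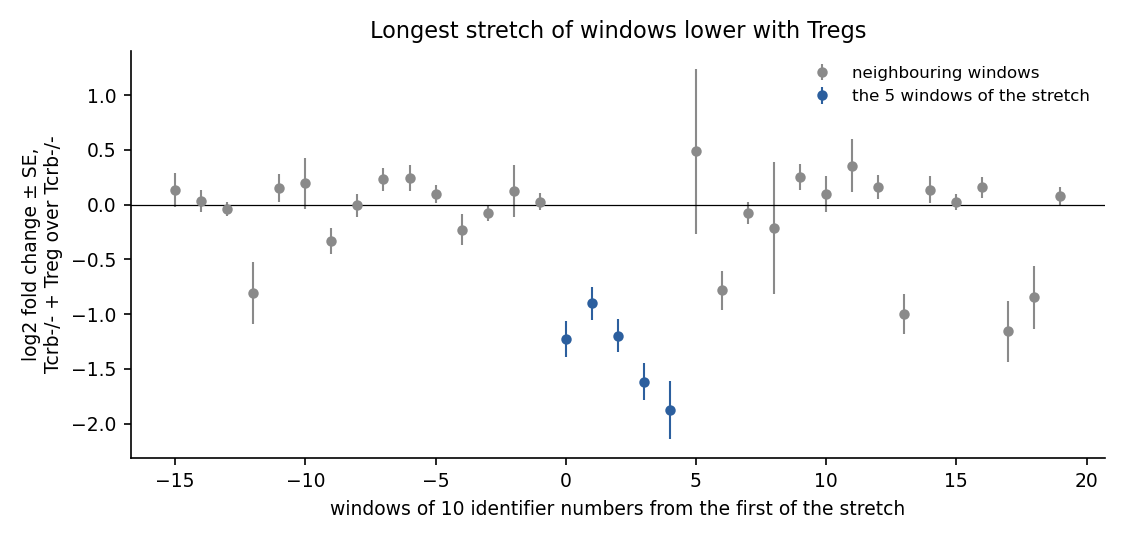
Log2 fold change with its SE (Tcrb-/- + Treg over Tcrb-/- skin) of the 5 windows of the longest stretch (blue) and of the 15 windows on each side (grey), by distance in windows of 10 identifier numbers from the first window of the stretch. The 5 windows lie at -1.88 to -0.90 and the window before them at 0.03.

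Windows that were higher with Tregs changed less. The 6 windows at an adjusted p under 0.01 had log2 fold changes of 0.49 to 0.96 and non-overlapping groups. The window with the smallest p, whose most abundant member was MGP_FVBNJ_T0021037.1 (2299 nt), went from 30.3, 36.6 and 32.2 CPM in Tcrb-/- to 62.5, 71.5 and 58.3 CPM in Tcrb-/- + Treg skin. The log2 fold change was 0.96 (SE 0.12, adjusted p = 0.00248), and UT WT and WT DMBA libraries lay at 34.8 to 47.7 CPM, overlapping the Tcrb-/- libraries. The adjusted p was 0.0135 without Tcrb-/- replicate 3, 0.0150 without Tcrb-/- + Treg replicate 1 and 0.0472 with only the 6 libraries. Without its most abundant transcript the window was at 0.44 (adjusted p = 0.698). The transcript itself stood at 23.1, 13.2 and 9.44 CPM against 44.1, 48.6 and 30.6 CPM, without overlap but short of the threshold (log2 fold change 1.43, SE 0.35, adjusted p = 0.195).

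Windows that fell were spread over the identifier numbers. Among blocks of 10000 numbers with at least 500 tested windows, the share that fell ran from 0.179% (1 of 559) to 1.63% (16 of 981), and 10 of 11 blocks held at least 1. The block of the lowest numbers had only 34 tested windows, of which 2 fell (5.88%) and 10 were lower and 2 higher at an unadjusted p under 0.05. Its median log2 fold change was -1.13, and that of the remaining 10 blocks lay between 0.0074 and 0.0435.

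The number of windows called depended on single libraries. The median log2 fold change of the 80 was -1.85 to -1.50 in the fits that left out 1 of the 6 libraries, and their sign could not turn there, since the groups did not overlap. Without Tcrb-/- replicate 1, edgeR's quasi-likelihood test called 14 windows higher and 120 lower, and 75 of the 80 remained. Without Tcrb-/- replicate 2 it called 42 windows, 38 of them among the 80, and without Tcrb-/- replicate 3 it called 17, 16 of them among the 80. Without Tcrb-/- + Treg replicate 1 it called 0 windows, with 1146 at an unadjusted p under 0.05, while 73 of the 80 had an adjusted p under 0.05. Without Tcrb-/- + Treg replicate 2 it called 159, 75 of them among the 80, and without Tcrb-/- + Treg replicate 3 it called 52, 45 of them among the 80. DESeq2 called 78 to 80 of the 80 in these fits. Fitting only the 6 libraries left 0 windows at an adjusted p under 0.01, with 1011 at an unadjusted p under 0.05, and 22 of the 80 had an adjusted p under 0.05. DESeq2 was run on these subsets after the data had been seen.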

How the data were processed

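Whole skin RNA was measured in 12 libraries, 3 in each of 4 groups taken from the titles. Per the methods and labels, the authors selected polyadenylated RNA, sequenced it on an Illumina instrument and ran Salmon 1.5.2 on the FVB/NJ cDNA, with FastQC 0.12.1 and MultiQC 1.11 for quality. The deposited tables give, for each transcript, an estimated count of reads, not normalized, a TPM value made by the authors from it, and the transcript's length. Estimated counts were rounded to whole numbers before testing.

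The transcripts, classes and windows were chosen with earlier results of these data known. Transcripts with at least 10 reads over the 12 libraries were fitted with edgeR 4.0.16 (quasi-likelihood, TMM, 4 groups, no covariate) in R 4.3.3, and sums over windows of 10 identifier numbers in the same way. A call needed an adjusted p under 0.01 and a fold above 2. Groups were compared in single values by exact permutation tests (scipy 1.17.1). The pseudocount for TPM was 0.1. DESeq2 1.42.0, limma 3.58.1, median-ratio scaling, other filters and window sizes, and fits without each library were the alternatives. Named were the most abundant transcript of a chosen window and of the longest run in each direction. The window was the called one of largest fold without overlap and with a larger group mean of at least 100 reads. In the direction without a called window, that of smallest p was taken. The fits were tested on simulated data. Estimated counts carry no counting interval here, and a count of 0 allows 3 reads, or 0.12 to 0.148 CPM in the 6 libraries. No replicates matched within sampling noise (chi-square per window 31.4 to 254). Whether replicate numbers pair the groups could not be settled. No sequences or gene names are given, since the identifiers were not matched to any.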

Additional observations from a re-analysis of the deposited data

How the results depend on the processing

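Under each alternative that called windows, lower windows outnumbered higher ones, while the numbers moved. Single transcripts called by edgeR were too few to show a lean without Tcrb-/- replicate 2 (1 higher, 1 lower) and replicate 3 (2 of each). At an unadjusted p under 0.05, lower transcripts still led in these 2 fits (1530 higher and 1863 lower, 1205 higher and 1721 lower). Without Tcrb-/- replicate 1 that order turned (2349 higher, 2165 lower). Single transcripts called were 753 with DESeq2, 20 with filterByExpr, 38 and 15 with limma at pseudocounts of 0.1 and 1, 17 with no filter, 27 among transcripts with whole-number reads only, 78 at an adjusted p under 0.05, 0 with only the 6 libraries, and 0 to 66 with 1 library left out, against 8. Windows called were 198 with DESeq2, 16 without the most abundant transcripts, 29 in windows of 20, 170 at an adjusted p under 0.05, 0 with only the 6 libraries, and 0 to 159 with 1 library left out, against 80. DESeq2 with 1 library left out (chosen after seeing the data), in the order Tcrb-/- replicates 1 to 3 and Tcrb-/- + Treg replicates 1 to 3, called 900, 688, 550, 581, 1150 and 670 transcripts and 277, 162, 147, 165, 285 and 193 windows. Windows of 5 gave 108, shifted windows 83, no filter 84 and median-ratio scaling 80. The percent of higher transcripts at 10 to 100 TPM, 55.0%, turned to 48.2% with DESeq2 and 44.8% with median-ratio scaling (chosen after seeing the data). With 1 library left out it ran from 35.4% to 66.7%, and in the other classes, in order of abundance, from 30.0% to 61.4%, 30.9% to 40.6%, 21.8% to 42.2%, 26.5% to 84.2% and 40.0% to 94.1%. The class shares of TPM at 0.1 to 1 and 1 to 10 TPM, -0.0971 and -0.422 percentage points as Tcrb-/- + Treg minus Tcrb-/-, turned to 0.0138 and 0.141 with classes set on the wild type libraries. Runs numbered 0 higher and 15 lower at an unadjusted p under 0.01, and 0 to 25 and 23 to 43 with 1 library left out. The correlation at distance 1 was 0.0206 at 100 reads and more, -0.0724 among whole-number transcripts and -0.0095 to 0.0064 with 1 library left out. The distance between groups minus that within groups at 1000 TPM and more, 0.0211, was 0.0698 on CPM with TMM. The cause of these changes was not tested.

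Whether replicate numbers pair the groups could not be settled, since 3 libraries a group are too few to exclude it. Deviations of same-numbered libraries correlated at 0.108, -0.119 and 0.392, and not every library correlated best with its own number. With the replicate number as a block, 0 transcripts (3234 at an unadjusted p under 0.05) and 56 windows were called, and MGP_FVBNJ_T0002475.1 had an adjusted p of 0.0374.

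The main limits are 3 libraries a group, divided reads in most estimates, and identifiers without gene names, with no cell type marker beside any difference.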
